A study of Homo sapiens with 10 samples.

Results

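Aquaporins are membrane channels that let water cross lipid bilayers along osmotic gradients. A subgroup, the aquaglyceroporins, also passes glycerol, and some members pass hydrogen peroxide. AQP3, at the plasma membrane of many epithelial cells, and AQP7, best known as the glycerol channel of fat cells and described in islet beta cells, are aquaglyceroporins. AQP1 is a water channel of red blood cells, endothelium and pancreatic ducts, AQP11 is an unorthodox member found in the endoplasmic reticulum, and AQP12B is a close copy of AQP12A, an acinar cell gene. These 5 genes (AQP1, AQP3, AQP7, AQP11 and AQP12B) were taken by their Ensembl identifiers from the 26346 genes that the deposited tables list. They were chosen with the difference between the siRNA groups already known, AQP3 because of the size of its fall, so their differences between groups are given as descriptions without a p-value.

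The cells were EndoC-βH1, an established human beta cell line that makes insulin and was obtained by immortalising fetal pancreas. The 5 control libraries came from preparations given a control siRNA (siCTL), and the other 5 from preparations given the siRNA siSR#2 against SRp55, the splicing regulator of the SR family that SRSF6 encodes; only this 1 targeting siRNA was used here. The preparations were independent per the series' design text, the RNA was polyadenylated, and no library was left out. SRSF6 itself had 98.2 ± 3.24 RPKM with control siRNA against 24.9 ± 3.78 RPKM with SRp55 siRNA (SD, n = 5), and the groups did not overlap. RPKM is a read count scaled to transcript length and library size, and a gene value is the sum over its transcripts. Reads assigned to transcripts numbered 61.9 M to 189.8 M (M, mega) per library. Log2 fold changes are of SRp55 siRNA over control siRNA on log2(RPKM + 0.5), relative to the median tested gene, which itself moved by 0.11. This scale understates the change of genes with low values. The limma p-values and calls test the change before that shift was taken off. For the aquaporin AQP4, for example, they test -0.35 where -0.46 is given. Calls of genes that rose are thus favoured over calls of genes that fell. All values come from bulk RNA, in which fewer cells that express a gene and less RNA per cell cannot be told apart.

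AQP3, AQP7 and AQP11 reached the mean of 0.5 RPKM needed to enter the fit across 13630 genes, while AQP1 and AQP12B did not. Of these 3 genes AQP3 had groups that did not overlap, as did 7.92% of all tested genes, and since the genes were chosen from this contrast nothing is read from that count.

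AQP3 (ENSG00000165272.10) lies on the minus strand of chromosome 9, from 33441152 to 33447609 in GRCh37. Its RPKM in control replicates 1 to 5 was 26.7, 15.2, 15.8, 18.4 and 13.4, and in SRp55 siRNA replicates 1 to 5 it was 7.62, 6.26, 8.004, 6.19 and 3.88. Every SRp55 siRNA library was below every control library, and control replicate 1 was the highest of all. The means were 17.9 ± 5.25 and 6.39 ± 1.62 RPKM (SD, n = 5), a log2 fold change of -1.52 (SE 0.22), which is 2.87-fold lower once the shift of the median gene is taken off.

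Within equal replicate numbers, SRp55 siRNA libraries held 28.5%, 41.2%, 50.7%, 33.7% and 29.0% of the AQP3 RPKM of their control. The remaining SRSF6 in the same pairs was 23.9%, 23.5%, 27.3%, 31.2% and 21.0%, so the AQP3 share was higher than the SRSF6 share in each pair. Replicate 4 kept the most SRSF6 and replicate 3 the most AQP3.

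The fall was also present in the reads from which RPKM was made. AQP3 received 5141, 1986, 4210, 5236 and 4494 reads in the control libraries and 1670, 1521, 1335, 2386 and 1045 in the SRp55 siRNA libraries. In reads per M assigned reads this was 36.9 ± 7.57 and 12.5 ± 2.13 (SD, n = 5), with control replicates 2 to 5 between 32.1 and 36.1 and control replicate 1 at 50.2. The log2 fold change on this scale was -1.51. AQP3 thus rested on at least 1045 reads in each library, and the order of the groups was the same on both scales. Of the tested genes, 61.5% had a lower mean RPKM than AQP3 with control siRNA, but 32.2% with SRp55 siRNA.

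**Figure D1:**
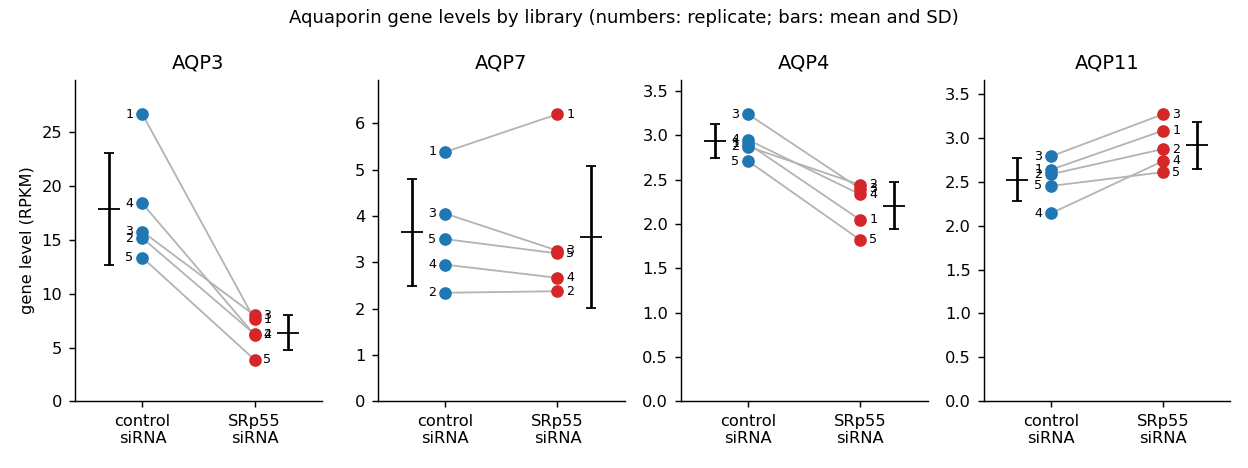
Gene level in RPKM (vertical axes, from 0) of AQP3, AQP7, AQP4 and AQP11 in the 5 control and 5 SRp55 siRNA libraries, with lines joining equal replicate numbers and bars for mean and SD. AQP3 and AQP4 were lower in each SRp55 siRNA library than in every control library, AQP7 differed more between replicates than between groups, and AQP11 was higher in 5 of 5 pairs with overlapping groups.

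The files list 5 AQP3 transcripts, of which 3 held at least 5% of the gene in a group. The coding transcript ENST00000297991 has 6 exons in GENCODE 44. The transcript annotated for nonsense-mediated decay, ENST00000473153, uses a later donor site for exon 3, which is 280 bases long instead of 138 and takes in 142 of the 350 bases of intron 3. The reading frame meets a stop codon 113 bases past the coding donor. The bases at both donors, with the intron's first 2 bases in capitals, and at that stop codon, in capitals, are shown because they mark where the isoforms part (GRCh38, minus strand, read 5′ to 3′).
Coding donor, chr9:33443309-33443332: ggctgtattatgGTaagcattccc
Decay-transcript donor, chr9:33443167-33443190: cacagggtcaagGTagggggcacg
Decay-transcript stop, chr9:33443196-33443216: ccgggctcaTGActcactcat

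The other 3 transcripts are annotated as retained introns, and each also holds part or all of intron 3. ENST00000463983 and ENST00000493581 hold all 350 bases, and ENST00000494313 begins inside the intron and holds its last 139 bases in GENCODE 44. The length of ENST00000494313 differs between the files (1505 bases) and GENCODE 44 (898 bases), so its structure in the files may differ. The coding transcript thus stands alone among the 5 in lacking intron 3 sequence.

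The coding transcript carried the fall of AQP3. It was at 21.0, 11.7, 15.6, 14.3 and 13.2 RPKM in control replicates 1 to 5 and at 6.03, 5.24, 5.35, 5.90 and 2.95 RPKM in SRp55 siRNA replicates 1 to 5. The groups were apart here as for the whole gene, with means of 15.2 ± 3.55 and 5.10 ± 1.25 RPKM (SD, n = 5). The coding transcript's share of AQP3 RPKM was 86.2% ± 11.6 with control and 80.2% ± 10.4 with SRp55 siRNA (SD, n = 5), a difference of -6.00 percentage points that is smaller than the SD of either group.

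The summed share of the intron 3 transcripts varied widely within both groups. Together they held 21.4%, 22.9%, 1.3%, 22.3% and 0.945% of AQP3 RPKM in control replicates 1 to 5, and 20.8%, 16.3%, 33.1%, 4.72% and 24.01% in SRp55 siRNA replicates 1 to 5. Control replicates 3 and 5 had at most 1.3%, the other 3 controls at least 21.4%, and the groups overlapped. The decay transcript was at 5.22, 3.13, 0.206, 3.798 and 0 RPKM in control libraries and at 0, 0.859, 2.45, 0.164 and 0.0567 RPKM in SRp55 siRNA libraries. ENST00000494313 was listed at 0 in all control libraries and in 3 SRp55 siRNA libraries, and at 1.48 and 0.836 RPKM in SRp55 siRNA replicates 1 and 5. The retained-intron transcript ENST00000493581 held 0.853% of the gene on average with control and 1.57% with SRp55 siRNA, and its share was higher in 5 of 5 pairs while the groups overlapped. These shares are estimates that divide reads among transcripts with shared exons, and the exon junction reads behind them were not used here.

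**Figure D2:**
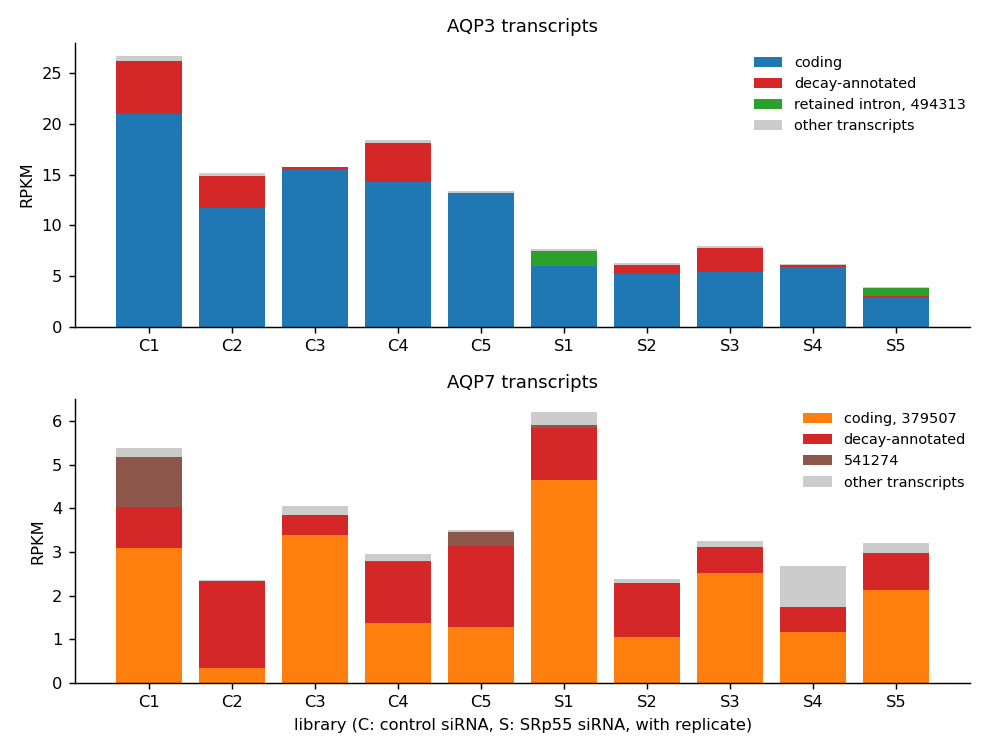
Stacked RPKM of AQP3 (top) and AQP7 (bottom) transcripts in each library (C, control siRNA; S, SRp55 siRNA; number, replicate). The AQP3 coding transcript is lower in each S library, from 2.95 to 6.03 RPKM, than in each C library, from 11.7 to 21.0 RPKM, while the other segments come and go within both groups.

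AQP7 (ENSG00000165269.8, chromosome 9, 33384765 to 33402643 in GRCh37, minus strand) starts 45.0 kb from the AQP3 start. Its RPKM was 5.38, 2.34, 4.05, 2.95 and 3.50 in control replicates 1 to 5 and 6.20, 2.38, 3.25, 2.67 and 3.19 in SRp55 siRNA replicates 1 to 5. Replicate 1 was the highest and replicate 2 the lowest in both groups, and the groups overlapped. The means were 3.65 ± 1.16 and 3.54 ± 1.53 RPKM (SD, n = 5), a log2 fold change of -0.17 (SE 0.25), with 3 of 5 pairs lower after SRp55 siRNA. AQP7 rested on 294 to 902 reads per library, and its level is uncertain because the genome holds near-identical AQP7 pseudogenes from which reads can be misassigned.

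Of 10 AQP7 transcripts, 3 held at least 5% of the gene in a group. The coding transcript ENST00000379507 made up 57.4%, 14.7%, 83.3%, 46.5% and 36.3% of AQP7 RPKM in control replicates 1 to 5 and 75.1%, 44.5%, 77.6%, 43.8% and 66.7% in SRp55 siRNA replicates 1 to 5. ENST00000537089, annotated for nonsense-mediated decay, starts further upstream and lacks the 124-base exon 2 of the coding transcript. Its share was 42.7% ± 29.5 with control and 27.4% ± 13.9 with SRp55 siRNA (SD, n = 5), and the most, 84.5%, in control replicate 2. Without that library the mean difference of the coding transcript was 5.66 percentage points in place of 13.9, and the groups overlapped for both transcripts. ENST00000541274, which has no match in GENCODE 44, reached 21.6% in control replicate 1 and at most 1.11% in SRp55 siRNA libraries. The splice sites of the exon that these isoforms use differently are shown with the intron's dinucleotides in capitals (GRCh38, minus strand, 5′ to 3′).
AQP7 exon 2 acceptor, chr9:33387081-33387104: cctcccttgtAGgtattcggcctt
AQP7 exon 2 donor, chr9:33386957-33386980: gccgcatctctgGTgagtgagccc

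AQP11 (ENSG00000178301.3, chromosome 11, 77300436 to 77321400 in GRCh37, plus strand) was at 2.63, 2.58, 2.79, 2.14 and 2.45 RPKM in control replicates 1 to 5 and at 3.08, 2.87, 3.27, 2.73 and 2.61 RPKM in SRp55 siRNA replicates 1 to 5. In 5 of 5 pairs it was higher after SRp55 siRNA, at 106.4% to 127.8% of the paired control, although the groups overlapped. The means were 2.52 ± 0.244 and 2.91 ± 0.265 RPKM (SD, n = 5). Relative to the median tested gene the log2 fold change was 0.07 (SE 0.10), and it was -0.03 without control replicate 4. The coding transcript ENST00000313578 held 90.0% ± 10.01 of the gene with control and 90.9% ± 11.9 with SRp55 siRNA (SD, n = 5). CLNS1A, a chaperone of spliceosome assembly first described in chloride currents of swollen cells, overlaps the whole AQP11 gene on the other strand at a mean of 39.2 RPKM. As the use of strand in counting is not given in the sources used here, reads of AQP11 and CLNS1A may not be fully separated. CLNS1A had a log2 fold change of 0.07 (limma adjusted p = 0.57).

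Aquaporins carry 2 signature boxes that line the pore, each with the family's NPA motif or a variant of it. The coding bases around both boxes of AQP3, AQP7 and AQP11 are printed, with the box codons in capitals, because the boxes mark the channel and place it on the AQP3 isoforms (GRCh38, 5′ to 3′, minus strand for AQP3 and AQP7, plus strand for AQP11).
AQP3 first box, chr9:33443430-33443456: gcccacctgAACCCTGCCgtgaccttt
AQP7 first box, chr9:33386513-33386539: gcccacatgAACGCAGCTgtgaccttt
AQP11 first box, chr11:77590278-77590304: acgtccagcAACCCGTGCggcgtgatg
AQP3 second box, chr9:33442351-33442377: tatgccgtcAACCCTGCCcgggacttt
AQP7 second box, chr9:33385699-33385725: tatgccatcAACCCGTCCcgggacctg
AQP11 second box, chr11:77603573-77603599: gctgtatttAATCCAGCTttggcactt

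In AQP3 the first box lies in exon 3, before the coding and decay donors part, and the second in exon 5. The annotated stop codon of the decay transcript comes before the second box, so its annotated reading frame does not reach it.

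AQP1 and AQP12B were near or at the limit of detection. AQP1 (ENSG00000240583.6, chromosome 7, 30893010 to 30965131 in GRCh37, plus strand) had 0.185 ± 0.0787 RPKM with control and 0.223 ± 0.0654 RPKM with SRp55 siRNA (SD, n = 5), from 11.9 to 119 estimated reads per library. Its groups overlapped, and no single transcript led in all libraries: ENST00000441328 held 11.8% to 83.9% of AQP1 in control libraries and 0% to 100% in SRp55 siRNA libraries. AQP1 shares its locus and strand with MINDY4 (1.10 RPKM) and the readthrough gene INMT-MINDY4, so part of these few reads may belong to them. AQP12B (ENSG00000185176.8, chromosome 2, 241615835 to 241622323 in GRCh37, minus strand) had 2 reads in control replicate 4 and 0 in the other 9 libraries, where a count of 0 allows up to 3 reads (counting error only). AQP12A, its close copy, had 0 reads in all libraries.

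Markers of the other cell types in which AQP1 and AQP12B are known were mostly near 0. Of the 4 measured endothelial markers CDH5, KDR and PLVAP were listed at 0 in every library, and the list's sum was at most 0.00129 RPKM. Of the red blood cell genes, HBB was at 0 in every library and HBA1 had 0 to 0.218 RPKM with control siRNA and 0.0881 to 0.605 RPKM with SRp55 siRNA. Of 9 acinar markers PRSS1, CELA3A, CTRB1 and PNLIP were at 0 in every library and 8 had a mean under 0.5 RPKM. The acinar sums of 16.2 to 27.7 RPKM with control siRNA and 16.2 to 39.7 RPKM with SRp55 siRNA were mostly CPA1, a carboxypeptidase. The 6 measured duct markers summed to 21.3 to 67.6 RPKM with control siRNA and 23.7 to 61.6 RPKM with SRp55 siRNA; KRT19 led on average, MUC1 reached 36.0 RPKM in 1 control library, and CFTR, SOX9 and SPP1 had means under 0.5 RPKM. The part of these other cell types in the AQP1 level was not tested. All 7 beta cell markers were tested, and INS, the insulin gene, had a mean of 8059 RPKM over all libraries.

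Ordered by mean control RPKM, AQP3 (17.9) was followed by AQP7 (3.65), AQP4 (2.93), AQP11 (2.52), AQP2 (0.722), AQP10 (0.477), AQP5 (0.471), MIP (0.186), AQP1 (0.185) and AQP6 (0.135). AQP3 was above every other aquaporin in each control library. Neighbours in this order overlapped over the control libraries, except AQP3 and AQP7, AQP11 and AQP2, and AQP5 and MIP. The AQP2 mean owed most to control replicate 1, at 1.99 RPKM. AQP8 had at most 2 reads in a library, and AQP9 and AQP12A had none.

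AQP4, the main water channel of astrocytes, was the other aquaporin whose groups did not overlap. It was at 2.71 to 3.24 RPKM in control libraries (median 2.90) and at 1.82 to 2.44 RPKM in SRp55 siRNA libraries (median 2.33). Its log2 fold change of -0.46 (SE 0.10) did not pass in the main fit (limma adjusted p = 0.083). The adjusted p was 0.032 with the replicate number as a block, 0.016 when reads were summed and 0.038 after median-of-ratios scaling, all past the threshold. Leaving out 1 library gave 0.093 to 0.17, none past it. AQP2, the vasopressin-regulated channel of the kidney, changed by -0.58 on the log2 scale without passing (limma adjusted p = 0.41), as did AQP10, a gut aquaglyceroporin, at 0.19 (limma adjusted p = 0.53).

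Summed over all 14 annotated aquaporins, expression came to 29.2 ± 7.11 RPKM with control siRNA and 17.0 ± 3.35 RPKM with SRp55 siRNA (SD, n = 5). Without AQP3 the sums were 11.3 ± 1.96 and 10.6 ± 2.01 RPKM, lower in 5 of 5 pairs with overlapping groups. AQP3 made up 57.5% to 64.9% of the sum with control siRNA and 30.7% to 42.7% with SRp55 siRNA. The AQP11 share went from 8.97% ± 1.96 to 17.5% ± 2.31 and the AQP7 share from 12.5% ± 2.64 to 20.6% ± 6.04 (SD, n = 5). Since shares add up to the whole, a lower AQP3 raises the summed share of the rest, and these values do not stand for higher levels. AQP3 was still the most abundant aquaporin in each SRp55 siRNA library.

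**Figure D3:**
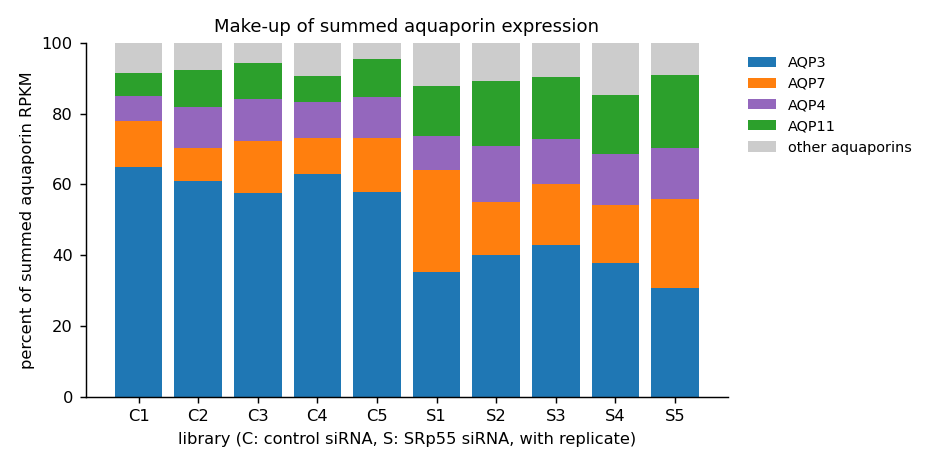
Share of summed aquaporin RPKM (vertical axis, percent) held by AQP3, AQP7, AQP4, AQP11 and the other aquaporins in each library (C, control siRNA; S, SRp55 siRNA; number, replicate). AQP3 makes up 57.5% to 64.9% in the C libraries and 30.7% to 42.7% in the S libraries.

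None of the genes next to AQP3 passed the threshold in the main fit. The 3 nearest tested genes on each side were CHMP5, a subunit of the membrane-remodelling ESCRT-III complex, NFX1, a transcriptional repressor, AQP7, NOL6, a nucleolar protein of ribosome assembly, ANKRD18B and ENSG00000260947. NOL6, 26.3 kb away, had 9.74 ± 1.49 RPKM with control siRNA and 10.9 ± 1.54 RPKM with SRp55 siRNA (SD, n = 5; log2 fold change 0.05, limma adjusted p = 0.54). The log2 fold changes of the other 4 beside AQP7 were 0.04 for CHMP5, 0.01 for NFX1, -0.02 for ANKRD18B and 0.28 for ENSG00000260947, and their limma adjusted p ranged from 0.062 to 0.81. ENSG00000260947 was higher in each SRp55 siRNA library than in any control. Its limma adjusted p was past the threshold on summed reads (0.035) and with the replicate block (0.041), fits that called 17.2% and 13.1% of all tested genes. It was not past it after median-of-ratios scaling (limma adjusted p = 0.14). With 1 library left out the limma adjusted p ranged from 0.036 to 0.14.

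**Figure D4:**
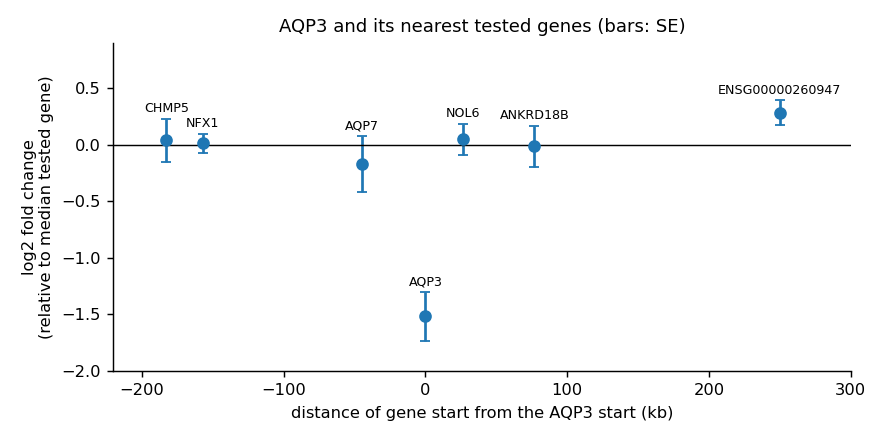
Log2 fold change of SRp55 siRNA over control siRNA, relative to the median tested gene (vertical axis; bars, SE), against the distance of gene starts from the AQP3 start in kb. AQP3 is at -1.52 and its 6 neighbours lie between -0.17 and 0.28.

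Over the 10 libraries the genes whose log2(RPKM + 0.5) was most like that of AQP3 were TPP1, a lysosomal peptidase (Pearson r = 0.98), CTPS2, a CTP synthase (0.98), ARMH3 (0.97), MXRA7 (0.97) and GLP1R, the receptor of the incretin GLP-1 (0.97). The libraries share a cell line and fall into the same siRNA groups, so any gene lower in the SRp55 siRNA group correlates with AQP3 by that alone, and these values are descriptions. With the group means removed, their r with AQP3 was 0.92, 0.92, 0.91, 0.89 and 0.86 in the same order. In all 5 the groups did not overlap, for example 67.7 ± 6.89 and 41.2 ± 4.50 RPKM for TPP1 (SD, n = 5). Of all tested genes, 7.92% had such groups. As the 5 were chosen for likeness to AQP3 over these libraries, nothing is read from that count or from these r. The 5 genes that deviated most like AQP3 from their group means were PARD3, a cell polarity scaffold (r = 0.99), DCUN1D4 (0.97), AGR2, an endoplasmic reticulum disulfide isomerase of secretory cells (0.96), NT5DC3 (0.95) and KANSL1, a chromatin regulator (0.95). They were picked as the highest of 11649 genes compared over 10 libraries, so nothing is read from these r either. PARD3 had 13.7 ± 1.88 RPKM with control siRNA and 13.9 ± 1.62 RPKM with SRp55 siRNA (SD, n = 5). AGR2 was at 32.2 ± 9.86 and 62.1 ± 16.5 RPKM, a difference opposite to that of AQP3. It did not pass in the main fit (limma adjusted p = 0.054) and passed with the replicate block (0.021), on summed reads (0.012) and after median-of-ratios scaling (0.030).

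The 3' UTR of AQP3, 883 bases in GENCODE 44, holds the word CAGGCTT once, a word searched because earlier results of these data had named it, AQP3 included. It is shown in capitals with its flanks (GRCh38, minus strand, 5′ to 3′), searched on the mRNA strand only.
AQP3 3' UTR, chr9:33441476-33441502: ggggcttctaCAGGCTTttgggaagta

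The longest annotated 3' UTRs of AQP7 (1826 bases) and AQP11 (979 bases) do not hold it, and that of AQP4 (4168 bases) holds it once. The AQP7 transcript with that UTR is 2879 bases long in GENCODE 44 but 1108 as quantified here. That of AQP11 is 1835 bases long in GENCODE 44 but 2152 as quantified here, so the UTRs of both may differ. Of the 12630 tested genes with an annotated 3' UTR of at least 20 bases, 18.6% hold the word, and the median length over all 12630 longest UTRs was 1850 bases. Because AQP3 had been named with the word in these same data, its match is not an independent observation. Nothing is read from it beside the 18.6% or the other aquaporins. A match says only that these letters are present, and whether they bear on AQP3 was not tested.

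Among genes that handle glycerol, one of the cargoes of AQP3 and AQP7, the share called was near that of all tested genes. Of 32 tested members 1 rose, 1 fell and 30 did not pass (adjusted p under 0.05 by limma; 6.25% called, against 5.02% of all tested genes), with a median log2 fold change of -0.08 in the list and 0 over all tested genes. ABHD5, the co-activator of the fat cell triglyceride lipase, went up from 15.4 ± 2.13 to 26.9 ± 3.04 RPKM (SD, n = 5; log2 fold change 0.68, limma adjusted p = 0.0074). Its groups did not overlap, and it passed in 10 of 10 fits with 1 library left out. GPAT3, which starts glycerolipid synthesis from glycerol 3-phosphate, went down from 2.31 ± 0.264 to 1.45 ± 0.359 RPKM (SD, n = 5; -0.65, limma adjusted p = 0.046). That call was lost with the replicate block (adjusted p = 0.055) and in all but 1 of the 10 fits with a library left out (adjusted p up to 0.11). GPAT3 did pass on summed reads (limma adjusted p = 0.0012) and after median-of-ratios scaling (limma adjusted p = 0.013). When reads were summed, 5 members passed in the lower direction and 1 in the higher, in a fit that called 17.2% of all tested genes.

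GK, GPD2, PGP and ABHD6, named whatever their p, did not pass. GK, glycerol kinase, had 25.2 ± 1.75 RPKM with control siRNA and 28.9 ± 3.63 RPKM with SRp55 siRNA (SD, n = 5; limma adjusted p = 0.38), and was higher in 5 of 5 pairs. For GPD2, the mitochondrial glycerol 3-phosphate dehydrogenase, the log2 fold change was -0.22 (limma adjusted p = 0.77). For PGP, which releases glycerol from glycerol 3-phosphate, it was 0.12 (limma adjusted p = 0.30). For ABHD6, a monoacylglycerol lipase, it was -0.14 (limma adjusted p = 0.91).

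Among genes of cell volume and osmolyte control, which act when water crosses the membrane, 4 of 34 tested members rose, 1 fell and 29 did not pass (14.7% called, against 5.02% of all tested genes). Their median log2 fold change was -0.04, against 0 for all tested genes. STK39, the kinase that relays WNK signals to chloride cotransporters, went up from 14.5 ± 0.674 to 19.9 ± 1.11 RPKM (SD, n = 5; 0.33, limma adjusted p = 0.018). ANO6, a calcium-activated scramblase and channel, went up from 11.9 ± 0.973 to 16.7 ± 1.05 RPKM (SD, n = 5; 0.36, limma adjusted p = 0.020). LRRC8A, the essential subunit of the volume-regulated anion channel, reached 19.3 ± 1.61 from 14.3 ± 1.05 RPKM (SD, n = 5; 0.31, limma adjusted p = 0.034). The kinases WNK2 (0.47, limma adjusted p = 0.041) and WNK4 (-0.54, limma adjusted p = 0.047) changed in opposite directions. With the median shift kept, as tested, the changes were 0.44 for STK39, 0.47 for ANO6 and 0.42 for LRRC8A. On that scale WNK2 was at 0.58 and WNK4 at -0.44. In none of these 5 did the groups overlap, as in 7.92% of all tested genes. They were named for a small p in this same contrast, so nothing is read from that count.

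These calls depended on scaling and on single libraries. After median-of-ratios scaling STK39 (adjusted p = 0.075), ANO6 (0.12) and LRRC8A (0.085) did not pass, which left 1 call in each direction, in a fit that called 6.74% of all tested genes. With the replicate number as a block there were 6 higher and 2 lower calls, against 13.1% called over all tested genes. With 1 library left out, STK39 and ANO6 each passed in 7 of 10 fits, LRRC8A and WNK2 in 2 and WNK4 in 1. Without control replicate 2 no member passed (limma, 6 had an unadjusted p under 0.05), in a fit that called 259 of 13630 tested genes. Over all tested genes, the fits with 1 library left out called 259 to 1085, against 684 in the main fit. NFAT5, the transcription factor of the hypertonic response (-0.26, limma adjusted p = 0.61), and SLC12A2, the sodium-potassium-chloride cotransporter (0.04, limma adjusted p = 0.77), did not pass.

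Of 25 tested genes that make or remove hydrogen peroxide 1 rose, 1 fell and 23 did not pass (8% called, against 5.02% of all tested genes), with a median log2 fold change of -0.02, against 0 for all tested genes. SRXN1, sulfiredoxin, which repairs oxidised peroxiredoxins, went down from 20.6 ± 2.60 to 13.9 ± 2.28 RPKM (SD, n = 5; -0.67, limma adjusted p = 0.041), with no overlap of the groups. PRDX2, a cytosolic peroxiredoxin, went up from 226.9 ± 72.8 to 374.9 ± 52.9 RPKM (SD, n = 5; 0.65, limma adjusted p = 0.047), and its highest control library, replicate 4, lay within the SRp55 siRNA range. SRXN1 passed with the replicate block (limma adjusted p = 0.015), on summed reads (0.00058) and after median-of-ratios scaling (0.0046). PRDX2 passed in the same fits (limma adjusted p = 0.018, 0.0034 and 0.016). Without a filter no member passed (limma, 6 had an unadjusted p under 0.05). With 1 library left out, SRXN1 passed in 3 of 10 fits and PRDX2 in 2. In 7 of the 10 fits no member of the list passed (limma, 3 to 4 had an unadjusted p under 0.05). Those 7 fits called 259 to 330 of 13630 tested genes. CAT, catalase, had 26.5 ± 2.08 RPKM with control siRNA and 27.6 ± 1.89 RPKM with SRp55 siRNA (SD, n = 5; limma adjusted p = 0.75). For PRDX4, the peroxiredoxin of the endoplasmic reticulum, the log2 fold change was 0.10 (limma adjusted p = 0.58).

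**Figure D5:**
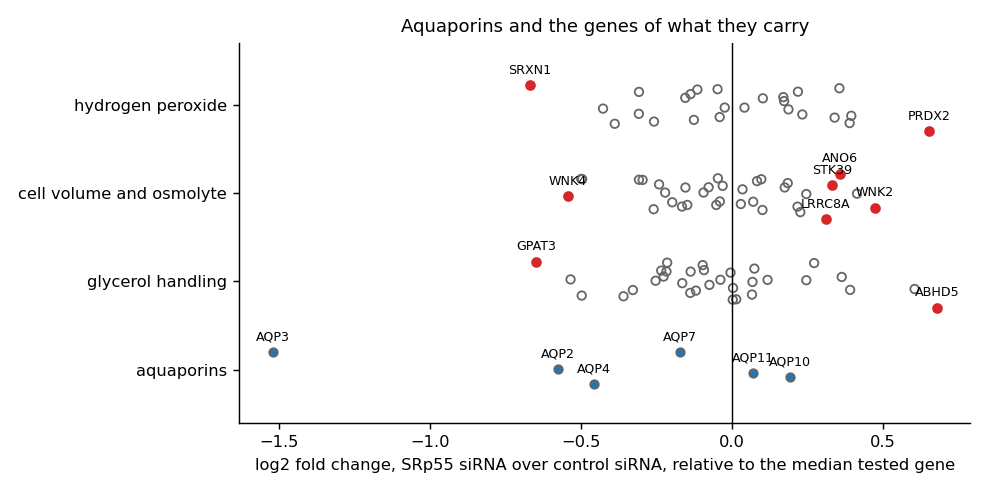
Log2 fold change of SRp55 siRNA over control siRNA relative to the median tested gene (horizontal axis) for tested aquaporins (filled blue, with no test result shown) and for the tested members of the glycerol, cell volume and hydrogen peroxide lists (open circles; red, limma adjusted p under 0.05). AQP3, at -1.52, lies below all members of the 3 lists, whose called genes lie between -0.67 and 0.68. AQP3 was chosen for the size of its fall, so nothing is read from its place.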

How the data were processed

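Polyadenylated RNA of 10 EndoC-βH1 libraries was sequenced on an Illumina HiSeq instrument. The submitters' processing notes name TopHat and GRCh37 (hg19). How reads were divided among transcripts, with which annotation release and whether strand was used: not given in the sources used here. The deposited files list, for 155130 transcripts, an estimated read count and an RPKM value in 1 text field, which no count model could be checked against, so limma was used. Gene values were sums over transcripts, and a transcript's usage was its share, in percent, of the RPKM sum.

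Genes averaging 0.5 RPKM or more were fitted with limma 3.58.1 (R 4.3.3; trend and robust options) on log2(RPKM + 0.5), with Benjamini-Hochberg adjustment over all 13630 genes and a threshold of 0.05. The fit was also run on simulated data drawn independently for each gene and library, without replicate pairs. That setting differs from these libraries, so nothing is read from it here. Symbols and transcript types came from GENCODE 44, matched by identifier for 95.0% of genes, and sequences from GRCh38. The aquaporins, the 3 gene lists, the cell type markers and the rule for named genes (the list members with the smallest adjusted p, up to 5 per list, 10 set members, 3 neighbours on each side, and 5 genes most like AQP3 among those of at least 2 RPKM) were chosen with earlier results of these data known. SOD2 (hydrogen peroxide list) and PECAM1 (endothelial markers) found no match. Some marker genes are not reported here.

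Equal replicate numbers were taken as pairs only in the pair descriptions and in the replicate block, and the main fit did not use them. The reason for pairing was that each pair's deviations from the group means correlated, between 0.13 and 0.41, against at most 0.12 for unequal numbers. Alternatives were a replicate block, median-of-ratios scaling, summed reads, pseudocounts of 0.1 and 1, no filter, and leaving out each library. P-values measure the spread between these preparations.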

Additional observations from a re-analysis of the deposited data

Results flagged for a closer look

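In 10 of 94 groups of 5 values examined, 1 library stood apart from the other 4 by Dixon's 95% criterion, which chance meets in about 1 of 20 groups. AQP7 was at 6.20 RPKM in SRp55 siRNA replicate 1, against 2.38 to 3.25 RPKM in the rest of its group. AQP2 was at 1.99 RPKM in control replicate 1, against 0.127 to 0.622 RPKM. GK was at 22.2 RPKM in control replicate 5, against 25.6 to 26.5 RPKM. LRRC8A was at 16.1 RPKM in control replicate 4, against 13.5 to 14.1 RPKM. PRDX4 was at 447.8 RPKM in SRp55 siRNA replicate 1, against 187.8 to 254.6 RPKM, and PRDX2 was at 352.8 RPKM in control replicate 4, against 180.0 to 227.3 RPKM. SRSF6 was at 92.4 RPKM in control replicate 3, against 99.5 to 99.99 RPKM. AQP3 had 50.2 reads per M assigned reads in control replicate 1, against 32.1 to 36.1, and its coding transcript had 2.95 RPKM in SRp55 siRNA replicate 5, against 5.24 to 6.03 RPKM. The AQP7 decay transcript held 51.5% of the gene in SRp55 siRNA replicate 2, against 17.7% to 26.7%. Several of the groups share libraries and genes, so they are not independent.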

How the results depend on the processing

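The log2 fold change of AQP3 stayed between -1.61 and -1.39 under the alternatives run for it (scaling, summed reads, pseudocounts, replicate block, 1 library left out). With 1 library left out, that of AQP7 was between -0.33 and -0.06, that of AQP11 between -0.03 and 0.12, and that of AQP1 between -0.11 and 0.02. Outside these ranges, AQP11 was at 0.14 on summed reads. AQP1 was at 0.39 on summed reads, 0.08 with a pseudocount of 0.1 and 0.05 after median-of-ratios scaling. For AQP12B no difference was computed. The coding transcript's usage difference ranged from -9.77 to -2.67 points for AQP3, 5.66 to 22.8 for AQP7 and -2.40 to 5.74 for AQP11. The 684 genes called in all became 1784 with the replicate block, 2340 on summed reads, and 259 to 1085 with 1 library left out. With the replicate block, 8 of 34 volume genes were called, against 13.1% of all tested genes. Median-of-ratios scaling called 412 higher and 507 lower genes, against 513 and 171 in the main fit. It called 2 of 34 volume genes, against 6.74% of all tested genes. Called glycerol genes numbered 1 of 35 without a filter, 6 of 32 on summed reads and 1 to 2 of 32 with 1 library left out. Peroxide genes numbered 0 of 30 without a filter (limma, 6 had an unadjusted p under 0.05), 5 of 25 on summed reads and 0 to 3 of 25 with 1 library left out. Volume genes numbered 0 to 5 of 34 with 1 library left out. The fit on summed reads called 17.2% of all tested genes, and the fit without a filter called 642 genes in all. The cause of these shifts was not tested. AQP1 rested on 11.9 to 119 estimated reads per library and AQP12B on at most 2.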
